A study of Mus musculus with 2 samples.

Results

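The 10 mast cell genes described here were found by gene symbol among 43346 annotated genes: the granule protease genes Cma1, Mcpt4, Tpsb2, Tpsab1 and Cpa3, the histamine synthesis gene Hdc, the receptor genes Kit, Fcer1a and Ms4a2, and the transcription factor gene Gata2. Their RNA was measured in 2 libraries of mouse tissue labelled as subcutaneous fat, which form 1 group and are numbered as biological replicates 1 and 2. The labels give strain C57BL/6J, littermates of both sexes pooled, an age of 8 weeks, no treatment, and polyA+ RNA longer than 200 nt depleted of ribosomal RNA and read as stranded pairs of 76 nt. Both libraries carry the same donor record and separate tissue sample records. Nothing in the labels says whether they came from separate animals or from pools that share animals, so the spread between them may be partly technical. With a single library on either side, differences are given with counting intervals and without tests.

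Mast cells are resident immune cells that lie along blood vessels and nerves in connective tissue, white fat included. They store histamine and proteases in granules packed around heparin. When antigen cross-links IgE on the high-affinity IgE receptor, the granules are released. Their survival depends on stem cell factor acting on the receptor KIT, and their gene programme depends on the transcription factors GATA2 and MITF. Kit, Hdc and Gata2 are also active outside mast cells. Kit marks melanocytes and interstitial cells of Cajal, Hdc is made by neutrophils, basophils and uterine epithelium, and Gata2 is used in endothelium, blood progenitors and the uterus.

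Replicate 1 held 54752739 estimated counts in all and replicate 2 held 58687668. The 7 white adipocyte marker genes were present in both libraries, with a summed level of 6708 TPM (a transcript's share of all transcripts, corrected for length and scaled to a fixed total) in replicate 1 and 24690 TPM in replicate 2. All 7 were over 2-fold lower in replicate 1 on scaled counts. The 7 genes of the uterus list summed to 562 TPM in replicate 1 and 34.5 TPM in replicate 2, and the 6 glandular epithelium genes to 688 TPM in replicate 1 and 13.6 TPM in replicate 2. All 13 were over 2-fold higher in replicate 1, so the library labelled replicate 1 goes against a pure fat label, and each difference below stands beside that one.

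Of the 10 members, all but Tpsb2 and Tpsab1 (8 genes) had a RefSeq promoter window, from 250 bases before the start site to 50 after it (build GRCm38.p6). A GATA motif, in any of the forms AGATAA or AGATAG or TGATAA or TGATAG on either strand, was present in a window of 6 of these 8 genes, and in 29.8% of all 32851 windows. The windows of Cma1, Mcpt4, Cpa3 and Hdc are shown because these 4 genes were higher in replicate 1 and held a motif. That of Ms4a2 is shown because it held 3 motifs while its counts were near 0. Gata2 was also higher in replicate 1, and its windows, which are not shown, held no motif. Each sequence runs 5′ to 3′ on the gene's own strand, and capitals mark the bases of a GATA motif on either strand.
Cma1, chr14:55944626-55944925, minus strand: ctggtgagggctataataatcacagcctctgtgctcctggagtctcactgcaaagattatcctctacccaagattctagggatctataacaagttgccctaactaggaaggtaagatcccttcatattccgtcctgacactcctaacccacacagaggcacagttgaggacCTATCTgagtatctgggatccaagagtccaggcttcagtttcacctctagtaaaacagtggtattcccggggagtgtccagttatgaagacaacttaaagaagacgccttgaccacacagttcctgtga
Mcpt4, chr14:56062261-56062560, minus strand: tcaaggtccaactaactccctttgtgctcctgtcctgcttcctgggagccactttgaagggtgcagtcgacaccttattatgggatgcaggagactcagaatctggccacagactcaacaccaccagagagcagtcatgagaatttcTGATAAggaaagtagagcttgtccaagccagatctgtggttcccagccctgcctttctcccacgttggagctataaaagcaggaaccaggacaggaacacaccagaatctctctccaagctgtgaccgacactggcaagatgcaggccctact
Cpa3, chr3:20242132-20242431, minus strand: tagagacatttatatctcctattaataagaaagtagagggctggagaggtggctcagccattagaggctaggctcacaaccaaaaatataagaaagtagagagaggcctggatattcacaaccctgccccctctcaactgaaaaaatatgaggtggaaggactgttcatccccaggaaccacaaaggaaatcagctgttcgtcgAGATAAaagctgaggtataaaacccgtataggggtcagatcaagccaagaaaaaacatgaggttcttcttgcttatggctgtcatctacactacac
Hdc, chr2:126618629-126618928, minus strand: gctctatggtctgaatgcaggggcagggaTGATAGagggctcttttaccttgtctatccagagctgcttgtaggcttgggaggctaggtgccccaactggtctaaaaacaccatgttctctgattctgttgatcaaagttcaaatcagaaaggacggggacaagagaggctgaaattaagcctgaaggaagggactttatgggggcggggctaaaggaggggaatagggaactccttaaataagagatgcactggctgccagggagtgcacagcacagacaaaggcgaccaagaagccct
Ms4a2, chr19:11623670-11623969, minus strand: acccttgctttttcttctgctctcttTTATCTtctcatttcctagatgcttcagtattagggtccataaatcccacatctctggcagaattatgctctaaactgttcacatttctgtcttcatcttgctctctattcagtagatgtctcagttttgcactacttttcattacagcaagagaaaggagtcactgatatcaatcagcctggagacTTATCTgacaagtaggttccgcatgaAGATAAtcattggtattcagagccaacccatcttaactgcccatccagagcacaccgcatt
The motif began at base -79 from the start site in Cma1, -103 in Mcpt4, -46 in Cpa3 and -221 in Hdc. In Ms4a2 the 3 matches began at bases -224, -37 and -11 from the start site. Fcer1a had 1 match, at -92, and the windows of Kit and Gata2 had none. A TATA motif, TATAAA on the gene's own strand, lay at -32 in Mcpt4, -31 in Cpa3 and -125 in Fcer1a, so in 3 of 8 genes, against 8.32% of all windows. The motif CATGTG on either strand, an E-box that MITF can bind, was present in the window of Fcer1a and in no other member's window, against 14.2% of all windows. The motifs overlapped nowhere in the printed windows, and a match describes letters in a window, not a bound site.

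Most mast cell genes were higher in replicate 1. Of the 8 members that averaged 10 or more counts after TMM scaling, 6 lay beyond 2-fold towards replicate 1, against 14.3% of 17167 genes by the same rule. None lay beyond 2-fold towards replicate 2, against 9.96% of all genes, and Kit and Tpsab1 were not called in either direction. The interval of Tpsab1, 0.355 to 1.05, reached past 0.5, so a 2-fold difference was not excluded for it. Here and below, a gene is said to be within the bound where its interval did not lie wholly beyond 2-fold. A gene with few counts can therefore be within the bound with a ratio past 2. With a minimum of 100 scaled counts, 5 of 6 members were beyond 2-fold towards replicate 1, against 12.5% of 13403 genes, and none towards replicate 2, against 10.6%. The median log2 ratio of the 8 compared members, replicate 1 over replicate 2, was 2.09, beside a median of -0.007 over all genes compared. The median size of the log2 ratio over all genes was 0.61, and 90% of genes lay within 2.32. Scaling by total counts or by spike-in controls instead moved every log2 ratio up by 0.52 or 0.46. The medians of the histamine handling and transcription factor lists given below, which are negative under TMM, are then positive, and no call towards replicate 2 was left in either list. In bulk tissue, fewer cells of a type and less RNA per cell cannot be told apart. Fcer1a and Ms4a2 had too few counts to compare.

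**Figure D1:**
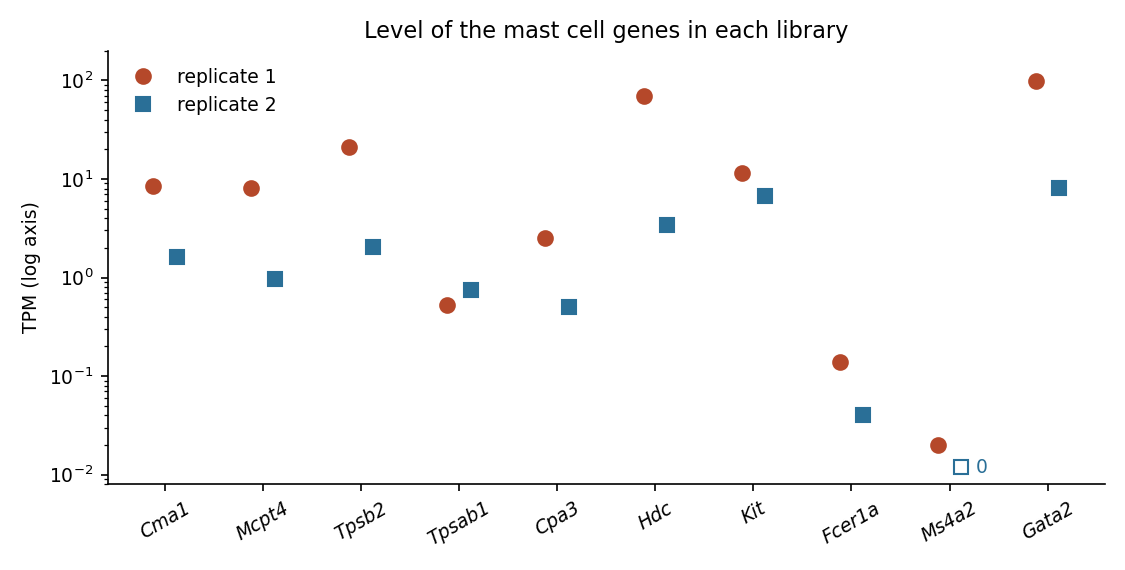
Level of each of the 10 genes in TPM on a log axis, with replicate 1 as circles on the left and replicate 2 as squares on the right; an open square marks a value of 0. Tpsab1 is the exception among the 10 in having a higher TPM in replicate 2, and Gata2 leads in both libraries.

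The members spanned a wide range of levels within each library. In replicate 1 the order by TPM was Gata2, Hdc, Tpsb2, Kit, Cma1, Mcpt4, Cpa3, Tpsab1, Fcer1a and Ms4a2. In replicate 2 Kit moved to the second place and Tpsab1 stood above Cpa3. A level of at least 1 TPM was reached by 7 members in replicate 1 and by 5 in replicate 2. Over both libraries Gata2 averaged 53.1 ± 63.7 TPM, Hdc 36.3 ± 46.6 TPM, Tpsb2 11.4 ± 13.3 TPM and Kit 9.10 ± 3.42 TPM (SD, n = 2). In 5 of the 10 members the SD was larger than the mean. Of the 9 neighbouring pairs in the order of mean TPM, 2 were further apart than the larger of their SDs, namely Tpsab1 above Fcer1a and Fcer1a above Ms4a2.

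Chymases are granule proteases that cut after aromatic residues, and Cma1 and Mcpt4 encode those of connective tissue mast cells (mouse mast cell proteases 5 and 4). Cma1 (chr14:55941451-55944675, minus strand) had 272 counts and 8.41 TPM in replicate 1, against 61 counts and 1.62 TPM in replicate 2. Mcpt4 (chr14:56059629-56062313, minus strand) had 238 counts and 8.16 TPM in replicate 1, against 33 counts and 0.97 TPM in replicate 2. Both chymase genes were thus higher in replicate 1 and near each other in level within each library. On scaled counts Cma1 was 3.35-fold higher in replicate 1 (exact 95% interval of the count split 2.53 to 4.50) and Mcpt4 5.42-fold (3.75 to 8.05). Cma1 over Mcpt4 was 1.03 by TPM in replicate 1 and 1.67 in replicate 2. Each gene has 1 annotated transcript, and their coding sequences were 64.0% identical over 800 aligned positions.

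Cma1 and Mcpt4 stand in a cluster of chymase and granzyme genes, and most of their neighbours gave few or no counts. Cma2, Mcpt9 and Mcpt8, the last a basophil protease gene, had 0 counts in both libraries. Mcpt1 and Mcpt2, the proteases of mucosal mast cells, had 1 count each in replicate 1 and 0 in replicate 2, as did Ctsg, the gene of cathepsin G. Gzmb, which encodes granzyme B of cytotoxic lymphocytes and some mast cells, lay at the far end of the cluster, with 394 counts in replicate 1 and 42 in replicate 2. It was 7.04-fold higher in replicate 1 (5.12 to 9.93). The genes named here beside Cma1 and Mcpt4 were taken by position, with their values known. Gzmc had 112 counts in replicate 1 and 0 in replicate 2, Gzmf 24 and 0, and Gzmd 20 and 0, in the same order. The cluster was therefore read at Cma1, Mcpt4 and a few granzyme genes, with the 2 mucosal protease genes at or near 0.

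**Figure D2:**
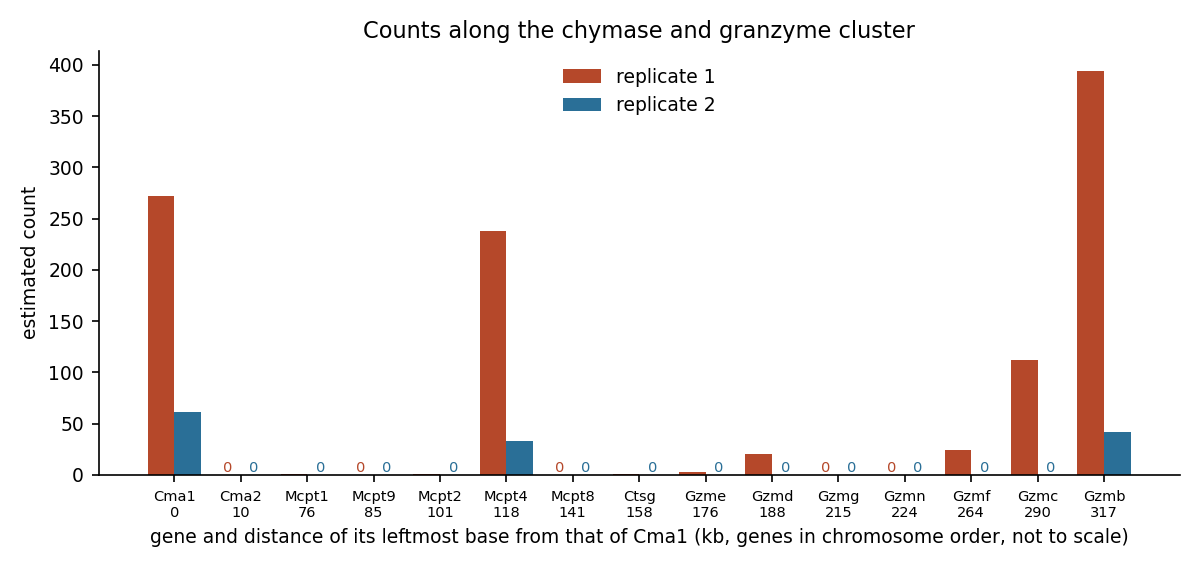
Estimated counts of the protein-coding genes from Cma1 to Gzmb in chromosome order, with replicate 1 on the left of each pair and replicate 2 on the right. Cma1, Mcpt4, Gzmc and Gzmb carry nearly all counts, and replicate 1 has the taller bar at each of them.

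Tryptases are proteases that cut after basic residues and are stored bound to heparin. Tpsb2 (chr17:25366305-25369098, plus strand), which encodes mouse mast cell protease 6, had 680 counts and 20.9 TPM in replicate 1, against 77 counts and 2.02 TPM in replicate 2. Tpsab1 (chr17:25343245-25345562, minus strand), which encodes protease 7, had 27 counts and 0.53 TPM in replicate 1, against 33 counts and 0.74 TPM in replicate 2. Tpsb2 was high in replicate 1, while Tpsab1 was low in both libraries. On scaled counts Tpsb2 was 6.63-fold higher in replicate 1 (5.23 to 8.51), and the ratio of Tpsab1 was 0.614 (0.355 to 1.05), an interval that includes 1. Tpsb2 over Tpsab1 was 39.4 by TPM in replicate 1 and 2.73 in replicate 2. Their coding sequences were 68.0% identical, yet the deposited posterior SD of the count was 0 for both, as for all 10 members, and every count was whole. The estimates thus divided no read between these genes and others.

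C57BL/6 mice are known to lack the protease 7 protein, because a base change at the splice site after exon 2 of Tpsab1 disturbs its splicing. RefSeq lists Tpsab1 as a transcribed pseudogene, whereas GENCODE lists it as protein-coding. The annotation has 2 transcripts, which part after exon 1, and the junction is shown because it separates the skipped form from the full one. Lower case marks the last 24 bases of exon 1 and capitals the first 24 bases of the exon that follows.
Tpsab1 transcript with exon 2: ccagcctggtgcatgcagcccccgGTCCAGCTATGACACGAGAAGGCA
Tpsab1 transcript without exon 2: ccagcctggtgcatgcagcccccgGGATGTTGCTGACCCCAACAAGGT
The full form has 5 exons and an open frame of 310 codons. The skipped form leaves out exon 2, of 166 bases, keeps the introns of 831 and 72 bases that follow, and has an open frame of 80 codons. In replicate 1 the skipped form was assigned 18.6 counts (54.8% of the gene's transcripts) and in replicate 2 it was assigned 5.42 counts (9.74%). The full form was assigned 8.43 counts (45.2%) in replicate 1 and 27.6 counts (90.3%) in replicate 2. The skipped form of Tpsab1 thus led in the estimates for replicate 1 and the full form in those for replicate 2, on 27 and 33 counts. Only the skipped form holds the 2 later introns, so reads within them had to go to it whether or not exon 2 was skipped. Its share is therefore not a measure of exon 2 skipping alone. No annotated transcript joins exon 1 to exon 3 and also removes both later introns, so reads of such an RNA had to be assigned to one of these forms.

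Tpsg1, a membrane tryptase gene next to Tpsb2, had 10 counts in replicate 1 and 1 in replicate 2. Prss34, a serine protease gene of basophils and some mast cells in the same cluster, had 36 counts in replicate 1 and 2 in replicate 2, and was 13.5-fold higher in replicate 1 (3.48 to 116). Prss28 and Prss29, uterine serine protease genes between Prss34 and Tpsab1, were at 0 in both libraries. These neighbours too were taken by position, with their values known.

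Cpa3 (chr3:20215620-20242181, minus strand) encodes mast cell carboxypeptidase A, which trims peptides cut by the chymases. It had 116 counts and 2.50 TPM in replicate 1, against 27 counts and 0.50 TPM in replicate 2. On scaled counts it was 3.23-fold higher in replicate 1 (2.11 to 5.10), the interval nearest to the bound among the 6 genes beyond it. All of its counts went to 1 of its 2 transcripts. The gene overlaps the microRNA gene Mir7007 on the same strand. Taken over the 5 granule protease genes, the summed level was 40.5 TPM in replicate 1 and 5.85 TPM in replicate 2, and 4 of 5 lay beyond the bound towards replicate 1, beside 14.3% of all genes, with 1.74 as the median log2 ratio.

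**Figure D3:**
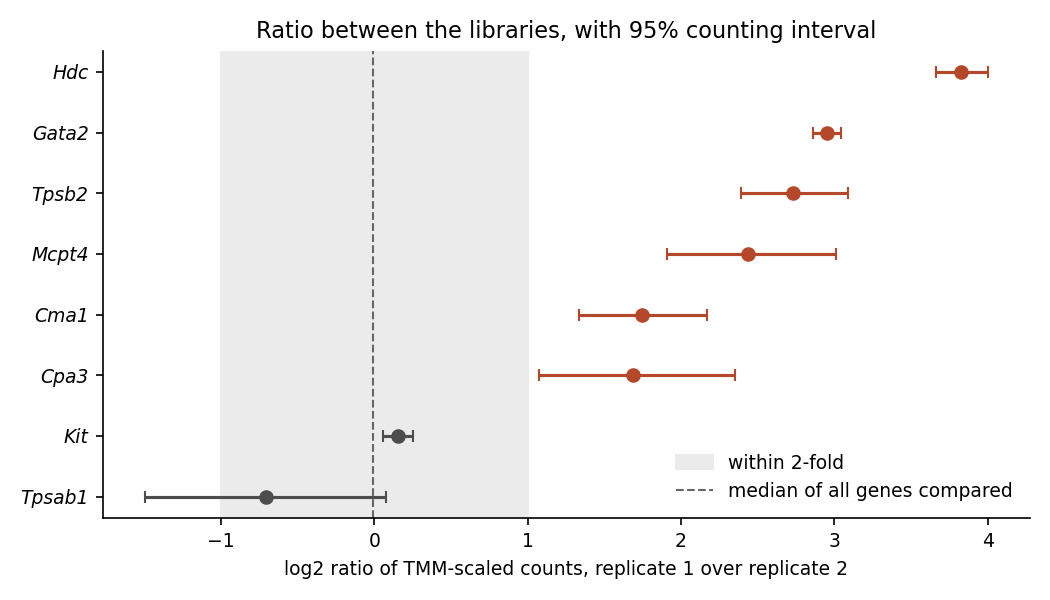
Log2 ratio of TMM-scaled counts, replicate 1 over replicate 2, of the 8 compared genes, with 95% counting intervals; the grey band spans 2-fold in either direction and the dashed line is the median of all genes compared. The 6 upper genes lie wholly right of the band, Kit lies inside it and the interval of Tpsab1 spans 1-fold.

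Hdc (chr2:126593667-126619299, minus strand) encodes histidine decarboxylase, the enzyme that makes histamine. It had 5789 counts and 69.3 TPM in replicate 1, against 306 counts and 3.41 TPM in replicate 2. Hdc had the widest gap between the libraries among the 8 compared members. On scaled counts it was 14.2-fold higher in replicate 1 (12.7 to 16.0), and 716 of the genes compared (4.17%) had a ratio as high. Within a library Hdc also stood further from the protease genes in replicate 1, since Hdc over Cpa3 was 27.7 by TPM in replicate 1 and 6.82 in replicate 2. Hdc over Tpsb2 was 3.32 in replicate 1 and 1.69 in replicate 2. The main transcript of the enzyme made up 94.4% of Hdc transcripts in replicate 1 and 77.3% in replicate 2. A form that retains an intron made up 3.75% in replicate 1 and 6.92% in replicate 2. A short noncoding form made up 0.78% in replicate 1, on 6.39 counts, and 11.8% in replicate 2, on 5.51 counts.

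The genes that receive or remove histamine showed no common direction. Of 6 such genes 4 were compared, with 1 beyond the bound in each direction and a median log2 ratio of -0.42. Hrh1 and Hrh2, which encode histamine receptors, had 1.38 and 1.67 TPM in replicate 1, against 1.01 and 1.57 TPM in replicate 2, and both were within the bound. Hnmt, whose enzyme methylates histamine inside cells, had 3.75 TPM in replicate 1 and 5.84 TPM in replicate 2, and its ratio on scaled counts was 0.365 (0.303 to 0.439). Aoc1, the gene of the secreted diamine oxidase that breaks down histamine, had 250 counts in replicate 1 and 3 in replicate 2, a ratio of 62.6 (21.2 to 306).

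Kit (chr5:75574916-75656722, plus strand) had 2172 counts and 11.5 TPM in replicate 1, against 1466 counts and 6.68 TPM in replicate 2. Its TPM was higher in replicate 1, but on scaled counts the ratio was 1.11 (1.04 to 1.19). Kit did not follow the protease genes, since Kit over Tpsb2 was 0.552 by TPM in replicate 1 and 3.31 in replicate 2. Markers of other cells that carry KIT were also read. The melanocyte genes Dct and Pmel had 0.77 and 1.25 TPM in replicate 1 and 0.80 and 1.22 TPM in replicate 2, and Tyr, which encodes the enzyme of melanin synthesis, was at 0 in both. Ano1, a channel gene of interstitial cells of Cajal that other tissues also express, had 78.5 TPM in replicate 1 and 15.3 TPM in replicate 2. Its partner on that list, Etv1, had 3.21 TPM in replicate 1 and 1.74 TPM in replicate 2, a ratio of 1.06 on scaled counts (0.859 to 1.31). The part of these cells in the Kit level was not tested.

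Kit RNA exists in forms with and without a short insert before the membrane segment, which arise from alternative ends of exon 9. The junction is shown because the full-length transcripts differ there, with the 12 inserted bases (4 codons, chr5:75639147-75639158) in capitals and 24 bases of context on either side.
Kit transcript with the insert: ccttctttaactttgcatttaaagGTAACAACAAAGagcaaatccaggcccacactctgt
Kit transcript without the insert: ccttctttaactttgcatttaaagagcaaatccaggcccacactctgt
The transcript with the insert made up 50.3% of Kit transcripts in replicate 1 and 52.5% in replicate 2. The transcript without it made up 49.7% in replicate 1 and 46.6% in replicate 2. The estimates gave both forms close to equal shares in both libraries. In replicate 1 they assigned 1090 counts with the insert and 1080 without it, and in replicate 2 they assigned 774 with it and 690 without it. These transcripts also differ at their start, base 75574955 with the insert and 75574916 without it. The shares therefore do not rest on reads of the insert alone. From posterior means, the shares in replicate 1 were 47.5% with the insert and 48.3% without it, and in replicate 2 they were 47.0% and 46.0%.

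Fcer1a (chr1:173221284-173227214, minus strand) encodes the chain of the high-affinity IgE receptor that binds IgE, and Ms4a2 (chr19:11615523-11623719, minus strand) the chain that amplifies its signal. Fcer1a had 4 counts and 0.14 TPM in replicate 1, against 1 count and 0.04 TPM in replicate 2. Ms4a2 had 2 counts and 0.02 TPM in replicate 1 and 0 counts in replicate 2, where a floor of 3 counts would allow up to 0.0744 TPM. The deposited upper bound of the Ms4a2 level in replicate 2 was higher, at 0.515 TPM, with a posterior mean of 0.24 TPM. Both receptor genes were near 0 in libraries where Tpsb2 and Cma1 were read clearly. The counting interval of the Fcer1a ratio ran from 0.297 to 148, so no difference was detectable at this depth.

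The shared signalling genes downstream of the IgE receptor are used by many leukocytes. All 13 were compared and all 13 were within the bound under TMM, with a median log2 ratio of 0.16. With scaling by total counts or by spike-in controls, 3 lay beyond it towards replicate 1, beside 23.5% or 22.3% of all genes. Their levels ran from 1.48 to 176 TPM in replicate 1 and from 1.22 to 64.7 TPM in replicate 2, with the kinase gene Btk, named after its values were seen, lowest in both, and 4 of the highest are given here. Fcer1g, the gene of the receptor's shared gamma chain, had 176 TPM in replicate 1 and 64.7 TPM in replicate 2. Plcg1, which encodes a phospholipase, had 88.3 TPM in replicate 1 and 64.4 TPM in replicate 2, and the kinase gene Fyn 52.7 TPM in replicate 1 and 22.1 TPM in replicate 2. Inpp5d, which encodes a phosphatase that limits the signal, had 45.2 TPM in replicate 1 and 14.3 TPM in replicate 2.

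Gata2 (chr6:88193891-88207032, plus strand) had the highest level of the members in both libraries, with 11078 counts and 98.2 TPM in replicate 1 and 1074 counts and 8.09 TPM in replicate 2. On scaled counts it was 7.75-fold higher in replicate 1 (7.28 to 8.25), and 1060 of the genes compared (6.17%) had a ratio as high. Gata2 over Tpsb2 was 4.70 by TPM in replicate 1 and 4.00 in replicate 2, so the pair kept a similar proportion. Gata2 over Kit was 8.52 in replicate 1 and 1.21 in replicate 2. In mice a distal first exon of Gata2 is known for use in blood-forming cells and a proximal one for wider use. The proximal form, which starts at base 88198334, made up 76.4% of Gata2 transcripts in replicate 1 and 82.9% in replicate 2. The distal form, which starts at base 88193891, made up 23.6% in replicate 1 and 17.1% in replicate 2. The proximal form led in both libraries. It was assigned 8530 counts in replicate 1 and 896 in replicate 2, and the distal form 2550 in replicate 1 and 178 in replicate 2.

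**Figure D4:**
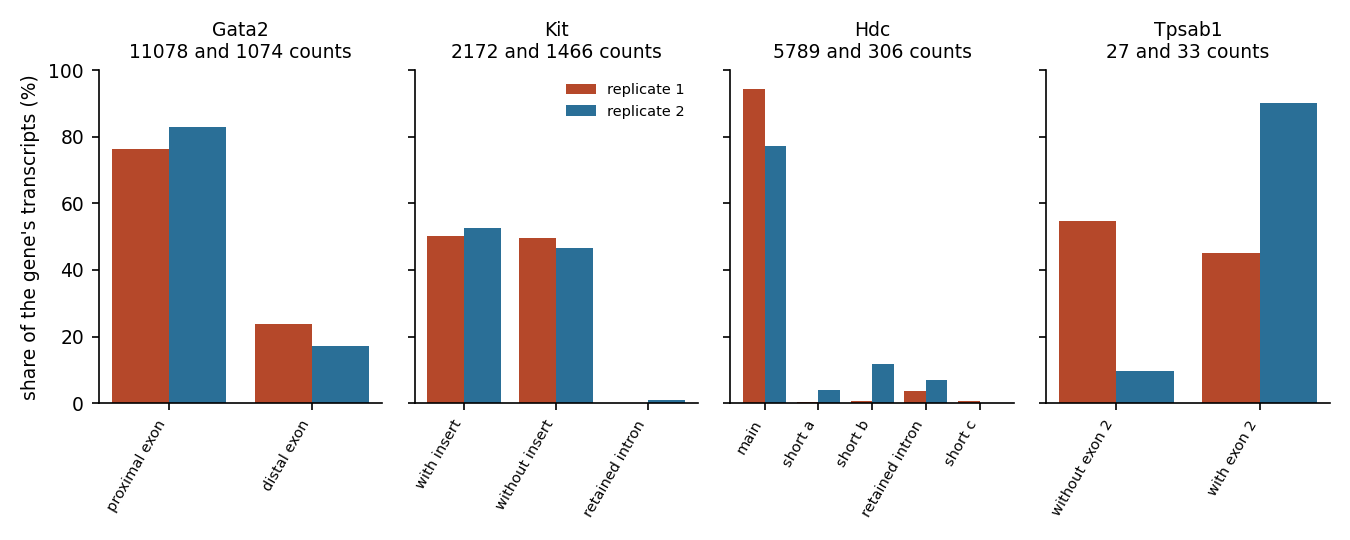
Share of each transcript with counts among the transcripts of Gata2, Kit, Hdc and Tpsab1, in percent, with replicate 1 on the left of each pair and replicate 2 on the right; titles give the gene's counts in replicate 1 and then in replicate 2, and the bars called short are short noncoding forms of Hdc. Kit and Gata2 have similar shares in both libraries, while Tpsab1 has 54.8% of the form without exon 2 in replicate 1 and 9.74% of it in replicate 2.

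Of 10 genes on a list of other transcription factors of mast or blood cells, 7 were within the bound, beside 75.7% of all genes. The others were 1 gene towards replicate 1 and 2 towards replicate 2, and the median log2 ratio was -0.27. Cebpa, a factor also central to fat cells, had 207 TPM in replicate 1 and 325 TPM in replicate 2. Stat5a had 37.8 TPM in replicate 1 and 46.8 TPM in replicate 2, Spi1 had 48.5 TPM in replicate 1 and 32.0 TPM in replicate 2, and Stat5b had 34.8 TPM in replicate 1 and 26.1 TPM in replicate 2. The gene higher in replicate 1 was Gata1, named after its values were seen, at 75 counts in replicate 1 and 14 in replicate 2. Mitf, also named after its values were seen, was within the bound at 16.2 TPM in replicate 1 and 4.84 TPM in replicate 2, a ratio of 1.90 on scaled counts (1.73 to 2.09).

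By the number of genes called, the wider set of mast cell genes was close to the background of all genes. Of 20 other genes linked to mast cells 13 were compared. Beyond the bound lay 2 towards replicate 1, beside 14.3% of all genes, and 1 towards replicate 2, beside 9.96%, while 10 were within it. The median log2 ratio was 0.46, beside -0.007 over all genes compared. The eicosanoid genes led this list by level and are shared with other cells. Ltc4s, the gene of leukotriene C4 synthase, had 144 TPM in replicate 1 and 386 TPM in replicate 2, a ratio of 0.240 on scaled counts (0.229 to 0.252). Alox5ap and Ptgs1, which act in leukotriene and prostaglandin synthesis, had 93.3 and 29.6 TPM in replicate 1, against 52.7 and 26.5 TPM in replicate 2. Mrgprb1 was the second gene higher in replicate 1, with 50 counts there and 5 in replicate 2. Mrgprb2, the receptor gene for drug-induced mast cell release in mice, had 18 counts in replicate 1 and 5 in replicate 2, with an interval of 0.967 to 9.32. Slc18a2 and Cyp11a1 were also within the bound on few counts, with ratios of 2.40 (1.15 to 5.48) and 3.45 (1.28 to 11.6). Il1rl1, Alox5 and Ptgs1, within it too, had ratios below 1. Apart from Ptgs1, the genes named from Mrgprb1 on were chosen after their values were seen.

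The genes for the granule core and for heparin synthesis were mostly within the bound, and their median log2 ratio was 0.12. Beyond the bound towards replicate 1 lay 1 of 9, beside 14.3% of all genes. With scaling by total counts or spike-in controls 2 lay there, beside 23.5% or 22.3% of all genes. Srgn, the gene of the granule proteoglycan serglycin, had 103 TPM in replicate 1 and 33.1 TPM in replicate 2, a ratio of 1.99 (1.85 to 2.15). Ext2 and Ndst1, which build and sulphate heparin and heparan sulphate in many cells, had 66.9 and 52.4 TPM in replicate 1, against 39.1 and 24.3 TPM in replicate 2. Hs6st1 was the gene beyond the bound under TMM, at 2.12-fold (2.02 to 2.24). Among genes of mast cell growth factors, Kitl, which encodes stem cell factor, the ligand of KIT, had 7.20 TPM in replicate 1 and 9.37 TPM in replicate 2. Il3 and Il9, cytokine genes of mast cell growth, were at 0 in both.

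Leukocyte genes in general were at similar levels in both libraries under TMM scaling. None of the 5 genes shared by leukocytes and none of 7 macrophage genes was beyond the bound, with median log2 ratios of 0.15 and 0.04. Scaling by total counts or spike-in controls moved these ratios up by 0.52 or 0.46 and added no call in either list. The shared leukocyte genes summed to 320 TPM in replicate 1 and 159 TPM in replicate 2. The macrophage genes summed to 901 TPM in replicate 1 and 579 TPM in replicate 2. Laptm5, a lysosomal membrane protein gene of blood cells, had 171 TPM in replicate 1 and 84.9 TPM in replicate 2, a ratio of 1.13 on scaled counts (1.09 to 1.16). Genes of granulocytes with counts in both libraries had ratios above 1, apart from S100a8 and Cd200r3. Of 6 neutrophil genes compared 4 lay beyond the bound towards replicate 1, with 2.22 as the median log2 ratio, and the list summed to 132 TPM in replicate 1 and 10.7 TPM in replicate 2. Retnlg, a neutrophil secreted protein gene, made up 106 TPM of that sum in replicate 1 and 2.74 TPM in replicate 2. S100a8, the gene of a calcium-binding protein of neutrophils, was within the bound, with 38 counts in replicate 1 and 35 in replicate 2, a ratio of 0.815 on scaled counts (0.501 to 1.33). S100a9 was also within it, with 28 counts in replicate 1 and 6 in replicate 2, a ratio of 3.50 (1.42 to 10.4). Of 3 eosinophil genes compared 2 were higher in replicate 1, and the list summed to 7.61 TPM in replicate 1 and 1.25 TPM in replicate 2. The basophil list summed to 1.12 TPM in replicate 1 and 0.23 TPM in replicate 2. Its gene compared was Prss34, while Cd200r3 had 7 counts in either library and Mcpt8 had 0.

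Several other cell types moved with or against the members. The 5 smooth muscle genes were all over 2-fold higher in replicate 1, with a summed level of 5238 TPM in replicate 1 and 631 TPM in replicate 2 and a median log2 ratio of 2.53. The 6 glandular epithelium genes had a median log2 ratio of 6.78. The uterus list had a median of 6.36 over the 6 genes with counts in both libraries, and of 6.89 with Foxl2, at 475 and 0 counts, set at its bound. Among its genes Pgr, the progesterone receptor gene, had 88.6 TPM in replicate 1 and 0.23 TPM in replicate 2, and Hoxa10, a uterine homeobox gene, had 164 TPM in replicate 1 and 14.2 TPM in replicate 2. Endothelial genes, which mark another cell type known to use Gata2, had 4 of 7 beyond the bound towards replicate 2 and none towards replicate 1. Their median log2 ratio was -1.35. Of these 4 calls, 0 were left with scaling by total counts and 1 with scaling by spike-in controls. The fat progenitor and fibroblast list had 2 of 8 higher in replicate 1 and, under TMM, 1 in replicate 2, with a median of 0.24. The part of the uterus, epithelial, smooth muscle, endothelial and granulocyte RNA in the levels of Hdc, Gata2 and the other members was not tested.

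Without Hdc, Kit and Gata2, the 7 remaining members summed to 40.6 TPM in replicate 1 and 5.89 TPM in replicate 2. Of these 5 were compared and 4 lay beyond the bound towards replicate 1, beside 14.3% of all genes, and the median log2 ratio was 1.74.

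**Figure D5:**
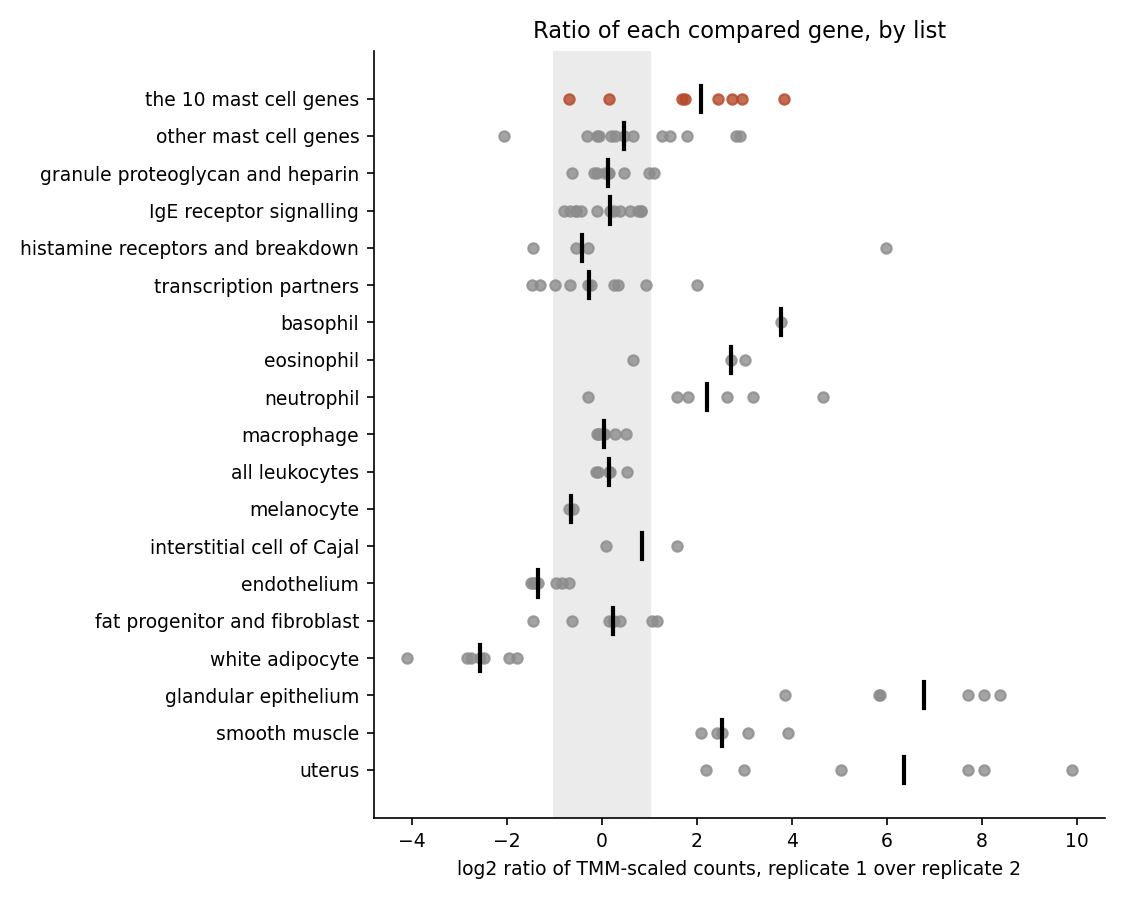
Log2 ratio of TMM-scaled counts, replicate 1 over replicate 2, of compared genes, by list, with the list's median as a black bar and 2-fold in either direction as a grey band. Foxl2 of the uterus list, at 0 in replicate 2, is not drawn. The list of mast cell growth factor genes (4 compared, median -1.20) is not drawn either. The mast cell genes have a median of 2.09 and overlap the neutrophil genes (2.22) and smooth muscle genes (2.53), while macrophage genes lie near 0 and adipocyte genes far to the left (median -2.56).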

How the data were processed

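RNA was measured in 2 libraries of 1 group, so no test was run and no p-value was computed. The gene and transcript tables were used as the authors deposited them: expected counts (estimated numbers of reads), TPM, FPKM, and for each transcript a percent of its gene (IsoPct). The estimates came from a program not given in the sources used here. Its annotation was GENCODE M4 on mm10, per the notes deposited beside the tables. The tables also hold, as deposited by the authors, other columns with a posterior SD of each count, posterior means and bounds of TPM. Contigs and splice junctions on mm9 were not used here.

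Gene symbols, positions and transcript sequences came from GENCODE M21 on GRCm38, and promoter sequences from RefSeq on GRCm38.p6. Expected counts were rounded and scaled with TMM factors from edgeR 4.0.16 in R 4.3.3 over 43346 annotated genes, without the 97 spike-in controls (artificial RNAs added in known amounts). The factors were 1.20 in replicate 1 and 0.837 in replicate 2. Each ratio is replicate 1 over replicate 2, with the exact Clopper-Pearson 95% interval of the split of the 2 counts. A gene was compared where the mean of its scaled counts reached 10, and called over 2-fold apart where its interval lay wholly beyond 2 or below 0.5. Every other compared gene is given as within the bound, also where its interval crosses 2 or 0.5. The ratio steps were tested on simulated data with counting error alone and few changed genes, balanced in direction. That setting does not test the scaling where many genes differ, as they do here. Intervals and the floor of 3 counts cover counting error only. Alternatives used DESeq2 1.42.0 size factors, total counts, spike-in totals, posterior means, and a minimum of 0 or 100 counts. TPM with a pseudocount of 0.1 or 1 and FPKM with a pseudocount of 0.1 were also used. For TPM and FPKM a member was counted where its ratio exceeded 2, without an interval. The other scalings of the list counts were added after seeing the data.

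The members and the other gene lists were chosen with earlier results of these data known. All 10 members are named, and from the other lists mainly the genes with the highest mean TPM and those at 0 in both libraries. Some results are not reported here.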

Additional observations from a re-analysis of the deposited data

How the results depend on the processing

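The count of members over 2-fold higher in replicate 1 was 5 or 6, and their median log2 ratio lay between 1.74 and 2.63, under each of the 9 alternatives of scaling, measure, estimate and minimum count run for these results. The 5 came from the minimum of 100 counts, which left 6 members compared. With TPM or FPKM the count used the ratio itself, without a counting interval. Scaling by total count moved every log2 ratio up by 0.52 (Kit to 0.67, Tpsab1 to -0.19), and scaling by spike-in totals by 0.46 (Kit to 0.61, Tpsab1 to -0.25). The share of all genes over 2-fold higher in replicate 1 was then 23.5% and 22.3%, and the share higher in replicate 2 was 4.30% and 4.76%. No direction of a member changed under any alternative run. With FPKM in place of TPM the mean of Tpsab1 was 0.46, and with posterior means the TPM of Ms4a2 was 0.27 and the share of the Kit transcript with the insert was 47.2%. No paired analysis was possible because the 2 libraries form 1 group. Depth limits Fcer1a and Ms4a2, which had 4 counts or fewer in each library, and the transcript shares of Tpsab1.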
